A study of Arabidopsis thaliana with 16 samples.

Results

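Nuclear genes of the photosynthetic membrane and of chlorophyll synthesis, 5 in number, were followed in heated leaves of Arabidopsis thaliana, line Columbia. They were LHCB4.3 (AT2G40100), PSBY (AT1G67740), ATPC1 (AT4G04640), CHLM (AT4G25080) and PORB (AT4G27440). Each had exactly 1 probe set that the array annotation assigned to it alone, so the 5 genes were read from 5 of the 22746 probe sets tested and of the 13513 with a single gene.

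The first fully expanded leaf was sampled at 4 states of photosynthesis, with 4 arrays per state. They were a baseline at 22 °C, where the plants had grown, the photosynthetic optimum, and 2 warmer points with photosynthesis inhibited by 20% and by 30%. Temperature was raised in steps of 2 °C every 10 min between 22 and 42 °C, with 20 to 30 min to stabilise and 3 to 4 h per curve, after growth in a 10 h photoperiod at 350 µmol m-2 s-1 of light and 60% humidity. All groups were the same line and tissue, the leaf temperature of each state was not in the labels, and later states were also later in the curve, so temperature and elapsed time cannot be told apart. The labels name 4 randomly collected plants without tying arrays to them. Every p-value below rests on the spread between arrays of the same state, pooled over the states in the fit. That spread may be partly technical.

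Light-harvesting proteins bind chlorophyll and pass excitation to the photosystems, photosystem II splits water, and the thylakoid ATP synthase uses the resulting proton gradient to make ATP. Chlorophyll is built in the chloroplast from a porphyrin precursor: magnesium is inserted, the CHLM enzyme methylates the product, and a protochlorophyllide oxidoreductase such as PORB carries out the light-dependent reduction that gives chlorophyllide. The genes described here lie in the nucleus, and their proteins are imported into the chloroplast.

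Signals are log2 values, so a difference of 1 is a doubling, and signals of different probe sets are not compared as levels. Group values are the mean ± SD of 4 arrays, and changes are limma estimates with their standard error (SE). The threshold for a call was an adjusted p (Benjamini-Hochberg) of 0.05. Only called changes are described with "rose" or "fell".

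Over the 16 arrays, values ran between 3.25 and 14.68 and array medians between 6.07 and 6.19. Correlations between arrays of one state lay between 0.988 and 0.998. One control stood apart. The array's 25S control, which detects ribosomal RNA, read 5.55 to 6.41 at baseline, 5.52 to 6.31 at the optimum, 12.99, 10.41, 5.25 and 12.88 in replicates 1 to 4 at 20% inhibition, and 8.67 to 11.35 at 30% inhibition. Replicate 3 at 20% inhibition was thus the 1 array of the inhibited states at the baseline level of this control. In bulk leaf RNA, fewer cells of a type and less RNA per cell cannot be told apart. Of 6 mesophyll markers only RCA, the Rubisco activase, had a named probe set, which read 14.60 to 14.64 at baseline and 14.35 to 14.50 at the inhibited states. Of 6 guard cell markers 2 had one. FMA read 6.33 to 6.77 at the inhibited states and 6.71 to 6.99 at baseline, and AT1G22690 read 7.25 to 8.15 at the inhibited states and 9.25 to 9.63 at baseline. None of the 6 epidermis and 6 vasculature markers had a named probe set, and the part of cell composition in the results below was not tested.

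By their state means, the 5 genes moved in 3 ways. The means of LHCB4.3 and CHLM were lower at each later state. Those of PSBY and ATPC1 were lower at the inhibited states and close to baseline at the optimum. The mean of PORB was higher by the optimum and then level. In LHCB4.3, CHLM, PSBY and ATPC1 alike, the only successive step called was that between the optimum and the first inhibited state. The calls at these steps therefore do not set LHCB4.3 and CHLM apart from PSBY and ATPC1. The 5 genes were chosen with earlier results of these data known. In the F test over the 4 states all 5 varied, where 54.0% of all probe sets did. The adjusted p was 1.2e-07 for PORB, 4.1e-06 for LHCB4.3, 4.8e-06 for CHLM, 0.00011 for ATPC1 and 0.012 for PSBY.

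**Figure D1:**
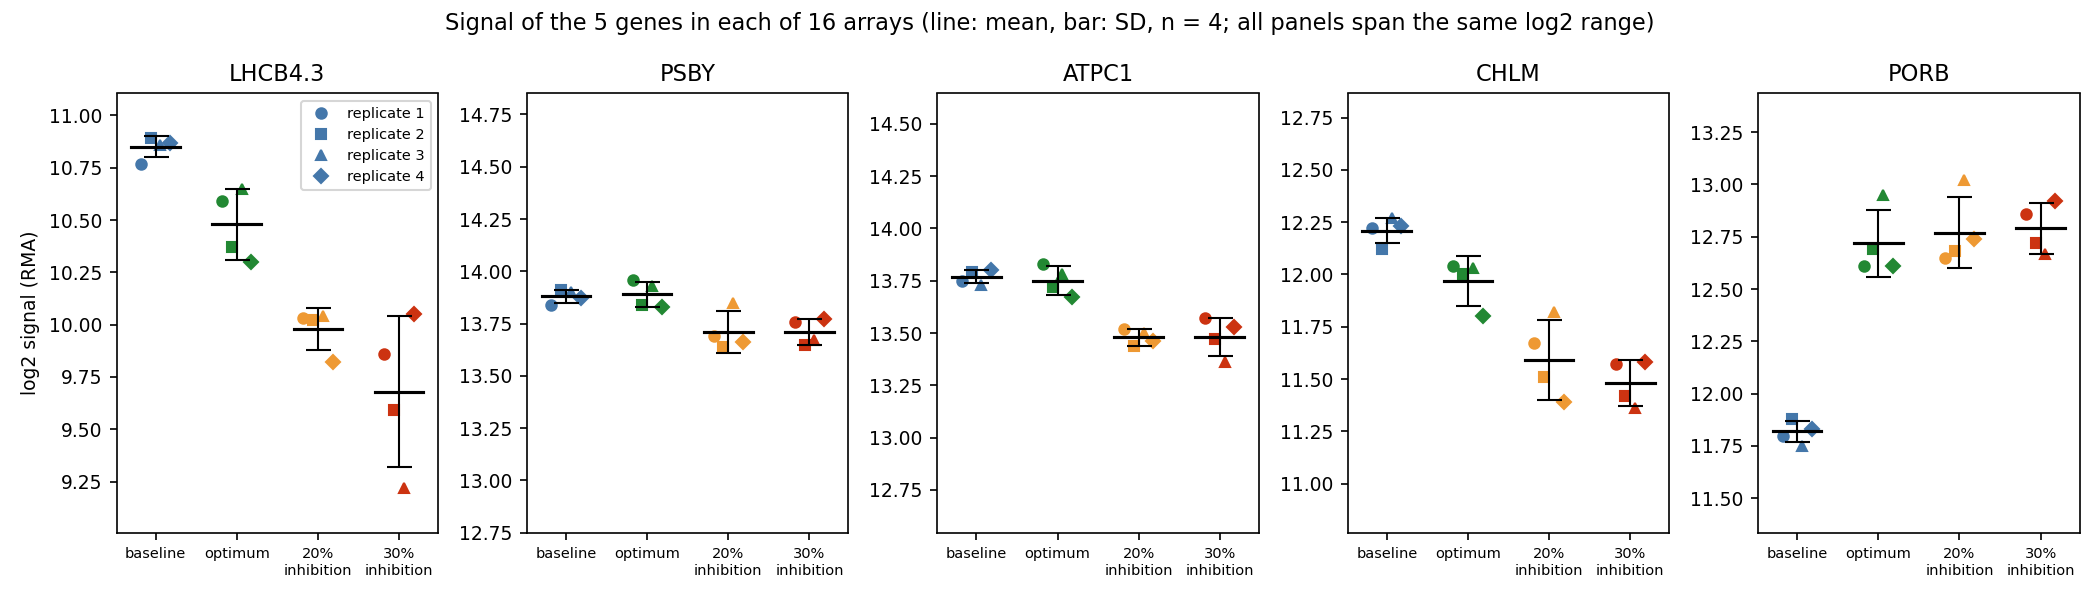
Log2 signal of the 5 genes (vertical axis, the same span in every panel) in each array of the 4 states (horizontal axis), with the mean as a line and the SD as a bar (n = 4). PORB is higher in every array from the optimum on than in any baseline array, and LHCB4.3 covers the widest range, between 9.22 and 10.89.

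LHCB4.3 encodes a form of the minor antenna protein CP29, which sits between the main antenna and the core of photosystem II. Its probe set read 10.77, 10.89, 10.86 and 10.87 at baseline, 10.59, 10.37, 10.65 and 10.30 at the optimum, 10.03, 10.02, 10.04 and 9.82 at 20% inhibition, and 9.86, 9.59, 9.22 and 10.05 at 30% inhibition. Every array at the optimum lay below every baseline array, every array at 20% inhibition lay below every optimum array, and the arrays at 30% and 20% inhibition overlapped. The state means were 10.85 ± 0.05, 10.48 ± 0.17, 9.98 ± 0.10 and 9.68 ± 0.36 in the order of the states.

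Against the baseline, LHCB4.3 fell by 0.87 ± 0.13 on the log2 scale at 20% inhibition (adjusted p = 3.5e-05) and by 1.17 ± 0.13 at 30% inhibition (adjusted p = 1.3e-06), which is 2.24-fold lower. The change at the optimum was -0.37 ± 0.13 and did not pass (adjusted p = 0.069), although the arrays did not overlap. This p fell below the threshold with only the 8 arrays of that comparison in the fit (0.011), with array weights (0.037), and without replicate 3 (0.016) or replicate 4 (0.035) at 30% inhibition, which belong to neither state compared; the change was -0.37 or -0.36 in all 4 cases. Arrays of all 4 states entered the spread used in the main fit. Over the 24 alternatives p lay between 0.011 and 0.19.

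The steps between later states were also compared for LHCB4.3. At 20% inhibition it was 0.50 ± 0.13 lower than at the optimum (adjusted p = 0.0057). When the 25S signal was added to the model as a covariate this call was lost (change -0.33, adjusted p = 0.16). Apart from replicate 3 at 20% inhibition, this covariate separates the inhibited states from the others. Its part and that of the state therefore cannot be told apart, here or below. In the main fit LHCB4.3 changed by -0.30 ± 0.13 between 30% and 20% inhibition (95% interval between -0.58 and -0.02, adjusted p = 0.21). Without replicate 3 at 30% inhibition this change was -0.14 (adjusted p = 0.52), and without replicate 4 it was -0.42 (adjusted p = 0.058). Baseline and optimum, and 20% and 30% inhibition, were therefore neighbours in the order of levels that did not differ at the threshold. Of the mean change between baseline and 30% inhibition, 31.5% was present at the optimum (26.4% to 36.4% when single arrays were left out). At 20% inhibition 74.5% was present (67.4% to 85.7%). These ranges are not confidence intervals. The change at the optimum was not called, and its 95% interval ran between -0.65 and -0.09.

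The other LHCB4 genes encode the more abundant CP29 forms. LHCB4.1 (AT5G01530) read 13.93 to 14.19 at 30% inhibition and 14.10 to 14.15 at baseline, with a change of -0.05 ± 0.06 (adjusted p = 0.51). LHCB4.2 (AT3G08940) read 13.79 to 13.90 at 30% inhibition and 13.82 to 13.93 at baseline, with a change of -0.01 ± 0.05 (adjusted p = 0.91). Neither gene was called in any of the 6 comparisons.

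To set the family members side by side, LHCB4.3 minus LHCB4.1 was taken within each array. The pairs of genes were chosen after their values were seen, so these differences are a description without a test. Relative to its baseline mean this difference was -0.24, -0.51, -0.28 and -0.63 at the optimum, -0.80, -0.76, -0.71 and -0.96 at 20% inhibition and -1.01, -1.07, -1.51 and -0.87 at 30% inhibition, against -0.10 to 0.04 in the baseline arrays. At all 3 states every array lay below every baseline array. The mean change of the difference was -0.41 at the optimum, -0.81 at 20% and -1.11 at 30% inhibition.

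Against LHCB4.2 the changes of the difference were -0.39, -0.84 and -1.16 at the 3 states, again with no overlap with baseline. The probe sets of LHCB4.1 and LHCB4.2 read near the highest signal of the arrays, 14.68, and whether their signals were saturated was not tested.

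**Figure D2:**
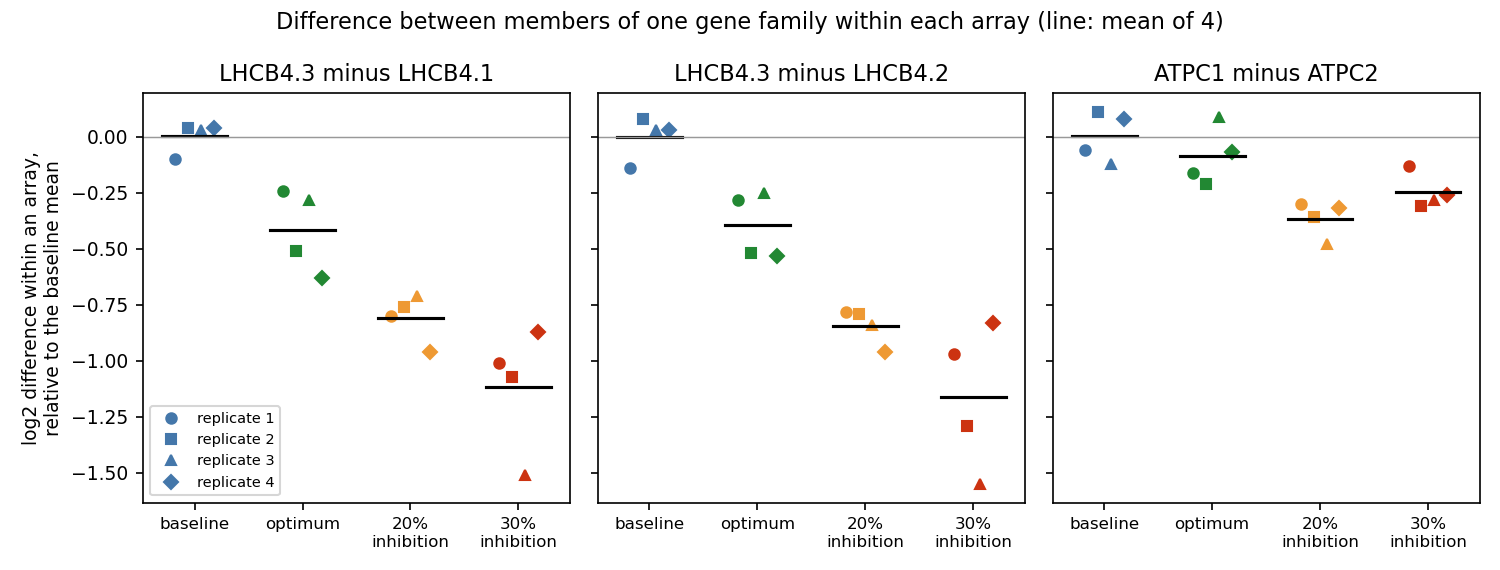
Difference in log2 signal between probe sets of one gene family within each array, relative to the mean of the baseline arrays (vertical axis), by state (horizontal axis), with lines at the means of 4 arrays. In both LHCB4 panels every array of the 3 warmer states lies below the baseline arrays, while ATPC1 minus ATPC2 overlaps with baseline at the optimum.

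PSBY encodes small membrane proteins of photosystem II. Its probe set read 13.84, 13.91, 13.90 and 13.87 at baseline, 13.96, 13.84, 13.93 and 13.83 at the optimum, 13.69, 13.64, 13.85 and 13.66 at 20% inhibition, and 13.76, 13.65, 13.67 and 13.77 at 30% inhibition. Replicate 3 at 20% inhibition, the array with the low 25S signal, lay among the baseline and optimum arrays, and the 4 arrays at 30% inhibition lay below all of them. The whole range over 16 arrays was 0.32.

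PSBY fell by 0.17 ± 0.06 at 20% inhibition (adjusted p = 0.024) and by the same 0.17 ± 0.06 at 30% inhibition (adjusted p = 0.023), each against the baseline and each 1.12-fold lower. Against the optimum it fell by 0.18 ± 0.06 at either inhibited state (adjusted p = 0.018 for both). The change at the optimum against the baseline was 0.01 ± 0.06 (adjusted p = 0.92), and between 30% and 20% inhibition it was 0.00 with a 95% interval between -0.12 and 0.12.

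The calls of PSBY were close to the threshold. With the 25S covariate the changes against the baseline were -0.06 (adjusted p = 0.55) at 20% and -0.07 (0.45) at 30% inhibition. Against the optimum, with that covariate, they were -0.08 (adjusted p = 0.45) and -0.09 (0.36). Without replicate 3 at 20% inhibition the fall at that state was larger, -0.21 against the baseline (adjusted p = 0.004) and -0.22 against the optimum (adjusted p = 0.0033). The call against the baseline at 20% inhibition ended without baseline replicate 2 (0.058) or 3 (0.051) and without replicate 2 (0.072) or 4 (0.065) of that state. At 30% inhibition it ended without baseline replicate 2 (0.056) and without replicate 2 (0.069) or 3 (0.061) of that state. Against the optimum the call ended without optimum replicate 1 (0.055 at 20% and 0.054 at 30% inhibition), without replicate 2 (0.055) or 4 (0.05) at 20% inhibition, and without replicate 2 at 30% inhibition (0.055).

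The other photosystem genes with a named probe set gave this small change a context. PSB27 (AT1G03600), an assembly and repair factor of photosystem II, fell by 0.34 ± 0.05 at 30% inhibition against the baseline (adjusted p = 5e-05). PSBW (AT2G30570), a small subunit of the same photosystem, fell by 0.14 ± 0.05 (adjusted p = 0.047). The photosystem I genes PSAE-1 (AT4G28750) and PSAN (AT5G64040) changed by -0.04 ± 0.05 and -0.08 ± 0.05 and did not pass (adjusted p = 0.57 and 0.21). PSAE-1 read 14.17 to 14.33 and PSAN 13.75 to 13.97, near the top of the array range. Whether this limited the size of their changes was not tested. AT2G26500, the 1 measured locus of the electron carrier list, changed by -0.06 ± 0.05 at 30% inhibition and did not pass (adjusted p = 0.4), and fell by 0.14 ± 0.05 at 20% inhibition (adjusted p = 0.048).

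ATPC1 encodes the gamma subunit of the chloroplast ATP synthase, the central shaft that turns inside the catalytic head. Its probe set read 13.75, 13.79, 13.73 and 13.80 at baseline, 13.83, 13.72, 13.78 and 13.67 at the optimum, 13.52, 13.44, 13.50 and 13.46 at 20% inhibition, and 13.57, 13.47, 13.36 and 13.53 at 30% inhibition. All 8 arrays of the inhibited states lay below all 8 arrays of the baseline and the optimum, and the arrays overlapped within each of these pairs of states. Replicate 3 at 20% inhibition, at 13.50, lay with the other arrays of its state.

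ATPC1 fell by 0.29 ± 0.05 at 20% inhibition (adjusted p = 3e-04) and by 0.28 ± 0.05 at 30% inhibition (adjusted p = 0.00035) against the baseline, a 1.22-fold lower signal in both. Against the optimum the falls were 0.27 ± 0.05 (adjusted p = 0.00075) and 0.26 ± 0.05 (adjusted p = 0.00083). At the optimum itself the change was -0.02 ± 0.05 (adjusted p = 0.86), so that 6.8% of the later change was present there (-2.56% to 16.2% when single arrays were left out). Between 30% and 20% inhibition the change was 0.01 with a 95% interval between -0.11 and 0.12 (adjusted p = 0.97). With the 25S covariate ATPC1 still fell, by 0.26 at both inhibited states against the baseline (adjusted p = 0.013 at 20% and 0.01 at 30%).

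ATPC2 (AT1G15700), the other gene for a gamma subunit, read 6.24 to 6.38 at 30% inhibition and 6.28 to 6.45 at baseline, near the array medians, and was called in none of the 6 comparisons. ATPC1 minus ATPC2 within an array changed by -0.36 at 20% and -0.24 at 30% inhibition, without overlap with the baseline, and by -0.09 at the optimum, with overlap. This pair too was chosen after its values were seen and is given without a test, and whether the dim ATPC2 signal stood above background was not tested. The signals of PSBY and ATPC1 lay near the top of the array range, and whether this limited the size of their changes was not tested.

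CHLM encodes the magnesium-protoporphyrin IX methyltransferase, which acts after magnesium has been inserted and before the ring that marks protochlorophyllide is closed. Its probe set read 12.22, 12.12, 12.27 and 12.23 at baseline, 12.04, 12.00, 12.03 and 11.80 at the optimum, 11.67, 11.51, 11.82 and 11.39 at 20% inhibition, and 11.57, 11.42, 11.36 and 11.58 at 30% inhibition. Every array of the 3 warmer states lay below every baseline array. The optimum and 20% inhibition overlapped through 1 array of each, replicate 4 at the optimum and replicate 3 at 20% inhibition.

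CHLM fell by 0.61 ± 0.09 at 20% inhibition (1.53-fold lower, adjusted p = 1.5e-05) and by 0.73 ± 0.09 at 30% inhibition (1.65-fold lower, adjusted p = 2.3e-06) against the baseline. The change at the optimum was -0.24 ± 0.09 and did not pass (adjusted p = 0.067). It did pass with only the 8 arrays compared (0.032), with arrays centred on their medians (-0.27, 0.044), with array weights (-0.22, 0.036), with the 25S covariate (0.033) and without replicate 3 (0.032) or replicate 4 (0.045) at 20% inhibition, which belong to neither state compared; over the 24 alternatives p lay between 0.032 and 0.21. Of the change between baseline and 30% inhibition, 33.4% was present at the optimum (25.5% to 36.7% when single arrays were left out). At 20% inhibition 84.7% was present (75.2% to 94.8%). The uncalled change at the optimum had a 95% interval between -0.43 and -0.06.

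From the optimum on, CHLM fell by 0.37 ± 0.09 at 20% inhibition against the optimum (adjusted p = 0.0023), and the change between 30% and 20% inhibition was -0.11 ± 0.09 with a 95% interval between -0.29 and 0.07 (adjusted p = 0.52). With the 25S covariate the change at 20% inhibition against the optimum was -0.19 (adjusted p = 0.17), and the call was lost. Without replicate 3 at 20% inhibition, the array with the low 25S signal, it was -0.45 (adjusted p = 3e-04). LHCB4.3 and CHLM thus shared the order of their levels, baseline highest and 30% inhibition lowest. In both, only the step between the optimum and 20% inhibition passed among the 3 successive steps. PSBY and ATPC1 had the same calls at these steps, so the calls do not set LHCB4.3 and CHLM apart.

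PORB encodes a protochlorophyllide oxidoreductase that in Arabidopsis stays expressed in green leaves. It was the 1 gene of the 5 that rose, and it was higher before photosynthesis declined. Its probe set read 11.80, 11.88, 11.75 and 11.83 at baseline, 12.61, 12.69, 12.95 and 12.61 at the optimum, 12.65, 12.68, 13.02 and 12.74 at 20% inhibition, and 12.86, 12.72, 12.67 and 12.92 at 30% inhibition. All 12 arrays of the warmer states lay above all 4 baseline arrays, and the 3 warmer states overlapped with each other.

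PORB rose by 0.90 ± 0.09 at the optimum (1.87-fold, adjusted p = 3.5e-06), by 0.96 ± 0.09 at 20% inhibition (1.94-fold, adjusted p = 1.5e-07) and by 0.98 ± 0.09 at 30% inhibition (1.97-fold, adjusted p = 1.1e-07), each against the baseline. At the optimum 98.5% of all probe sets had a lower change. Of the change at 30% inhibition, 92.4% was present at the optimum (84.4% to 96.7% when single arrays were left out).

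After the optimum no further step of PORB passed. The change at 20% inhibition against the optimum was 0.05 (95% interval between -0.14 and 0.25, adjusted p = 0.65), at 30% inhibition against the optimum 0.07 (-0.12 to 0.26, adjusted p = 0.55), and between 30% and 20% inhibition 0.02 (-0.17 to 0.21, adjusted p = 0.94). With the 25S covariate the first 2 of these were 0.26 (adjusted p = 0.064) and 0.26 (adjusted p = 0.051), and the rise against the baseline was 1.16 at either inhibited state.

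The 5 genes were chosen with earlier results of these data known, so the shares below are a description without a test. Set against all probe sets, the 5 genes were called as follows. At the optimum against the baseline 1 of 5 was called, higher, where 16.6% of the array was called, 8.14% higher and 8.43% lower; 3 of 5 had no overlap between the states, which held for 21.8% of all probe sets. At 20% inhibition against the baseline 1 rose and 4 fell, where 43.9% of all were called, 18.9% higher and 24.9% lower. At 30% inhibition against the baseline the counts were again 1 and 4, where 44.3% were called, 19.3% higher and 24.9% lower. These comparisons share the baseline arrays. At 20% inhibition 4 of 5 had no overlap with the baseline, which held for 40.2% of all probe sets. At 30% inhibition it was 5 of 5, beside 43.6% of all probe sets.

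Against the optimum 4 of 5 fell at 20% inhibition, where the array as a whole had 41.7% called, 18.8% higher and 22.9% lower. At 30% inhibition 4 of 5 fell, where 41.2% were called, 18.6% higher and 22.6% lower. No overlap with the optimum was found for 2 of 5 at 20% inhibition, beside 36.1% of all probe sets. For 30% inhibition it was 4 of 5, beside 40% of all. Between 30% and 20% inhibition none of the 5 was called by limma, where 7.16% of all were, 4.19% higher and 2.97% lower, and LHCB4.3 alone had an unadjusted p under 0.05 (0.038). The median log2 change of the 5 was -0.29 at 20% and -0.28 at 30% inhibition against the baseline, beside 0.005 and -0.012 over all probe sets. Much of the array changed at the inhibited states, and the sizes for PSBY and ATPC1 were ordinary: 48.9% and 62.2% of probe sets had a smaller or equal absolute change at 30% inhibition. For LHCB4.3 this share was 94.0%, for PORB 91.5% and for CHLM 85.9%.

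Around the 5 genes, 9 lists held 114 further loci of the antenna, the photosystems, electron carriers, the ATP synthase, chlorophyll synthesis and breakdown, their regulators, and antenna insertion and repair. Only 17 of them had a probe set of their own in the annotation, and none of the 8 regulators and 15 insertion and repair genes did. Of these 17, none was called higher and 1 lower at the optimum against the baseline, 1 rose and 4 fell at 20% inhibition, and 1 rose and 6 fell at 30% inhibition. Over all probe sets 16.6%, 43.9% and 44.3% were called in either direction at these states. The shares of the 17 called in either direction were no larger. By direction, 24.9% of all probe sets were lower and 19.3% higher at 30% inhibition. The 6 of 17 that fell there were a larger share than over the array, and the 1 that rose a smaller one. Their median change was 0.03, -0.06 and -0.08 at these states.

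**Figure D3:**
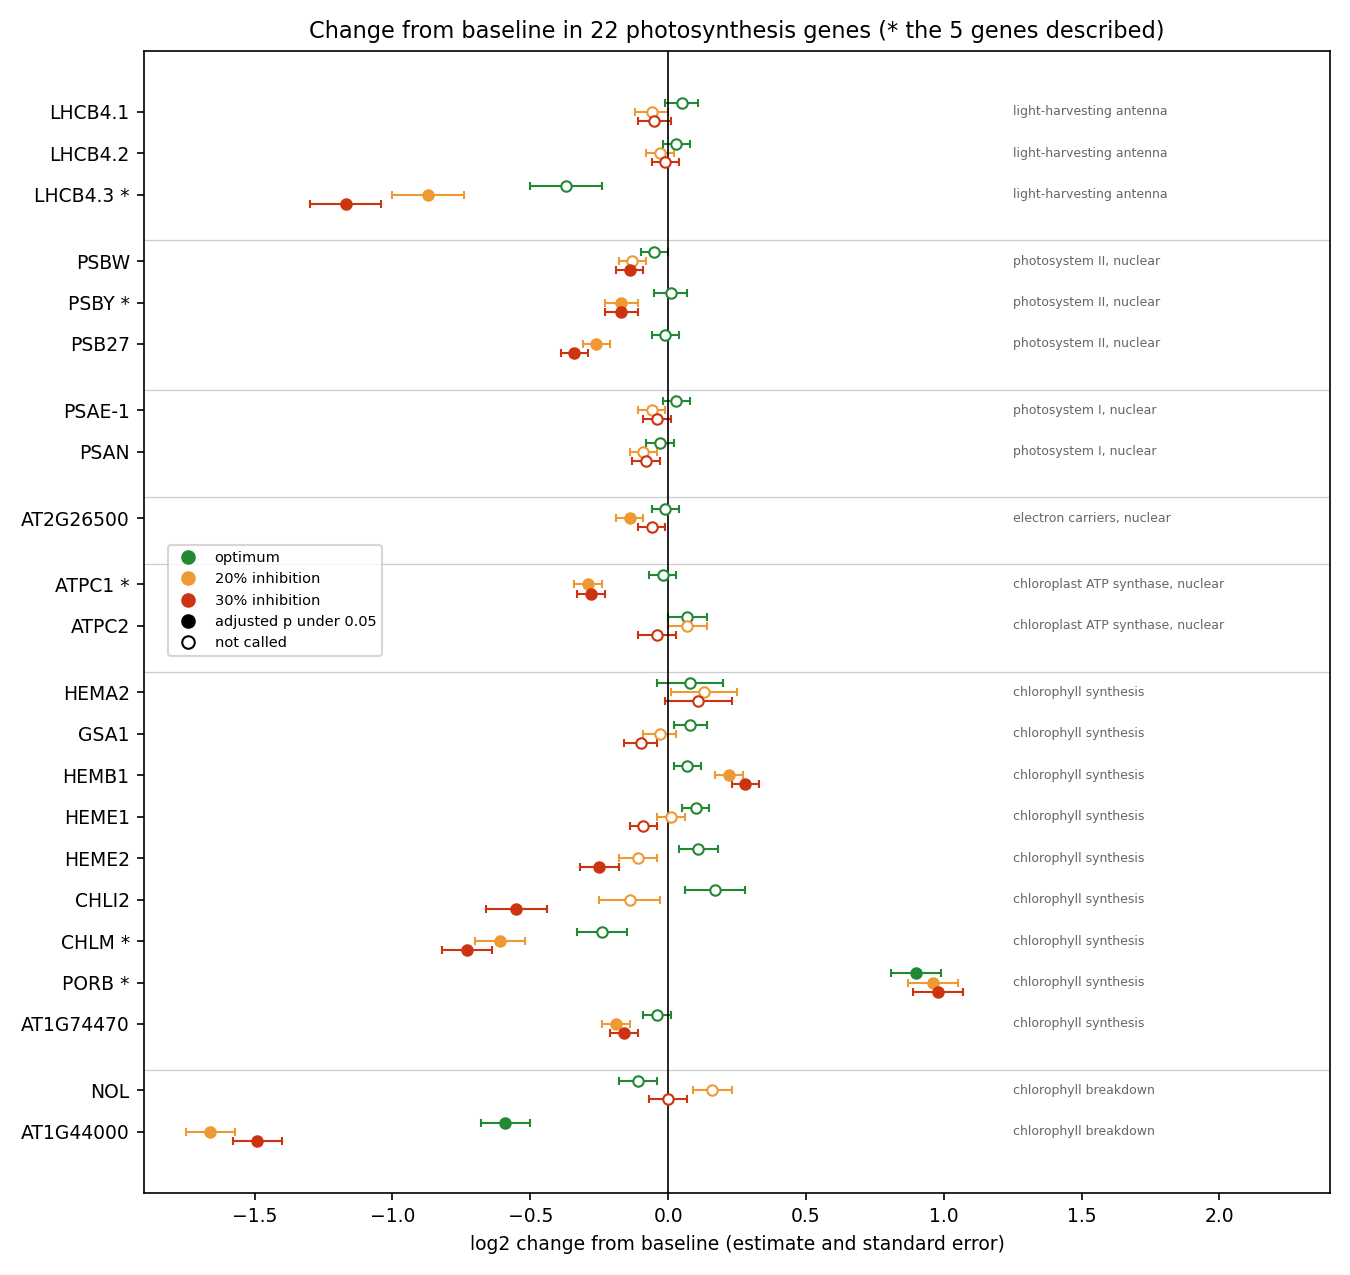
Log2 change from baseline with its standard error (horizontal axis) at the optimum, 20% and 30% inhibition for the 22 genes of the photosynthesis lists with a probe set of their own (vertical axis, grouped by list); filled points had an adjusted p under 0.05. PORB stands at 0.90 to 0.98, AT1G44000 reaches -1.66 at 20% inhibition, and LHCB4.1, LHCB4.2 and ATPC2 stay near 0.

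Chlorophyll synthesis was the list with the most measured loci, 9 of 26, and had changes in both directions. At 30% inhibition against the baseline 2 of the 9 rose and 4 fell, beside 19.3% higher and 24.9% lower over all probe sets. PORB and HEMB1 (AT1G69740), the aminolaevulinate dehydratase early in the pathway, were the rises, HEMB1 by 0.28 ± 0.05 (adjusted p = 6.8e-05). CHLM, the magnesium chelatase subunit CHLI2 (AT5G45930), the uroporphyrinogen decarboxylase HEME2 (AT2G40490) and the geranylgeranyl reductase AT1G74470 were the falls. CHLI2, at the step just before CHLM, fell by 0.55 ± 0.11 (adjusted p = 0.00079), HEME2 by 0.25 ± 0.07 (adjusted p = 0.0053) and AT1G74470 by 0.16 ± 0.05 (adjusted p = 0.022).

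CHLI2 read 9.57 to 9.97 at the optimum and 9.49 to 9.66 at baseline, a change of 0.17 ± 0.11 (adjusted p = 0.37), and it was the 1 list gene that fell between 30% and 20% inhibition (-0.40 ± 0.11, adjusted p = 0.043). HEMA2, GSA1 and HEME1, of the first steps of the pathway and of uroporphyrinogen decarboxylation, were not called at any state against the baseline. In the breakdown list AT1G44000 fell by 0.59 ± 0.09 at the optimum (adjusted p = 2e-04) and by 1.66 ± 0.09 at 20% inhibition (adjusted p = 9.6e-11), the largest change among the 22 genes, and NOL (AT5G04900), a chlorophyll b reductase, was not called against the baseline.

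For each of the 5 genes the 3 closest profiles were found among 13355 other genes, as the root mean square (RMS) difference between log2 profiles over 16 arrays, each centred on its own mean. This is a description of likeness in these arrays. Nearest to LHCB4.3 were AT1G06690 (RMS difference 0.102), AT4G29590 (0.106) and CRR42 (AT5G20935, 0.118), the last named for chlororespiratory reduction, where LHCB4.3 itself varied with an RMS of 0.483 about its mean. AT1G06690 had means of 9.77, 9.43, 8.96 and 8.62 at the 4 states, the same graded order.

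Nearest to CHLM, with an RMS of 0.31 about its mean, were the aldehyde dehydrogenase ALDH3F1 (AT4G36250, 0.087), HCF101 (AT3G24430, 0.091), named for a high chlorophyll fluorescence phenotype, and AT1G54610 (0.095). Nearest to PORB was CCL (AT3G26740, 0.09, against 0.426 for PORB about its mean), with means of 11.95, 12.73, 12.75 and 12.81. The next for PORB were AT2G46490 (0.141) and AT1G63830 (0.16).

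Nearest to ATPC1 was PSB27 (0.052, against 0.149 for ATPC1), the photosystem II factor described above, with means of 13.43, 13.42, 13.17 and 13.09, and then AT2G42220 (0.055) and AT1G32470 (0.056). PSBY varied so little (RMS 0.104) that AT4G18060 (0.05), AT3G11630 (0.052) and AT1G74470 (0.054) lay only modestly nearer to it than a flat line would.

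**Figure D4:**
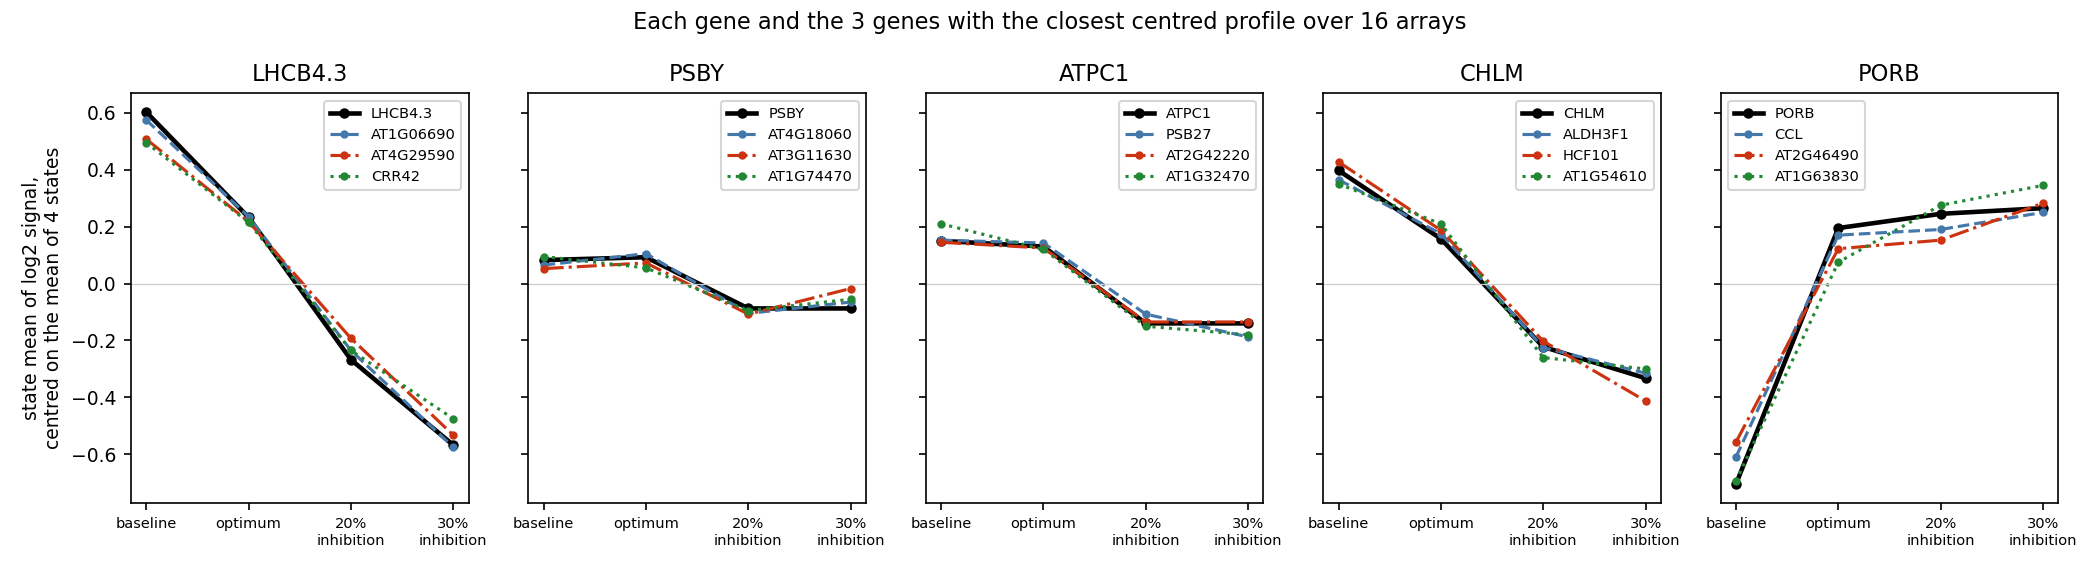
State means of log2 signal centred on the mean of the 4 states (vertical axis) for each of the 5 genes (black) and its 3 closest genes over 16 arrays (coloured), by state (horizontal axis). The means of LHCB4.3 and CHLM slope down through all states, PSBY and ATPC1 step down after the optimum, and PORB steps up at the optimum. For LHCB4.3 and CHLM only the step between the optimum and 20% inhibition was called.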

How the data were processed

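Biotin-labelled cRNA from 6 µg of total RNA per sample was hybridised to Affymetrix arrays, per the labels' protocols. The deposited values were log2 signals per probe set, normalised by the authors with RMA, per the submitters' processing notes, which also name limma; no version is stated there. RMA equalises the arrays' distributions, so every change is relative to the other probe sets.

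Of 22810 probe sets, 64 controls were left out and 22746 were tested without a filter or a pseudocount. One model with 4 state means was fitted to 16 arrays with limma 3.58.1 in R 4.3.3 (residual degrees of freedom 12, prior 4.21). The 6 pairwise comparisons were 2-sided, with p-values adjusted by Benjamini-Hochberg over the 22746 probe sets. The fit was tested on simulated data with independent noise and changes in few probe sets. Much of the array changed in the real data, so that test does not cover their setting.

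Genes came from the array annotation (13513 probe sets with 1 gene, 503 with several, 8730 with none) and from the RefSeq table of assembly TAIR10.1, used for names only; 13436 of the 13513 matched it. The 5 genes and all lists were chosen with earlier results of these data known. The naming rule took the 5 genes, every list locus with a probe set of its own, and the 3 closest profiles per gene. Outside this rule stand the differences within gene families, which were chosen after their values were seen. Deviations of arrays with the same replicate number correlated between -0.36 and 0.31 across states (5 of 24 pairs over 0.1), so the numbers were not treated as pairs. Alternatives were an intensity-trended and a robust prior, a fit of the 8 compared arrays alone, a filter that removed the 33.3% of probe sets with the weakest mean signal, centring on medians, array weights, the replicate block, the 25S rRNA control as a covariate, and leaving out each array.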

Additional observations from a re-analysis of the deposited data

Results flagged for a closer look

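In a group of 4 arrays, an array was marked when its gap to the nearest other array exceeded Dixon's 95% critical share of the group's range, which chance gives in about 1 of 20 groups. This marked 7 of 100 groups over the 22 list genes and 3 markers. In LHCB4.3, replicate 4 at 20% inhibition read 9.82, where the other arrays of the state read 10.02 to 10.04. In CHLM, replicate 4 at the optimum read 11.80, against 12.00 to 12.04. The others were PSBW at 30% inhibition replicate 1 (13.19, against 13.10 to 13.11), PSAN at baseline replicate 4 (13.97, against 13.85 to 13.87), AT2G26500 at the optimum replicate 4 (13.53, against 13.66 to 13.69), GSA1 at the optimum replicate 1 (11, against 10.83 to 10.85) and NOL at 20% inhibition replicate 1 (9, against 8.94 to 8.95).

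The 25S rRNA control, which enters no comparison of the genes, was above every baseline array in 3 of 4 arrays at 20% inhibition (up to 12.99) and in 4 of 4 at 30% inhibition (up to 11.35), where the baseline arrays reached 6.41. Its part in the changes of the 5 genes was not tested beyond its use as a covariate.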

How the results depend on the processing

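Of 720 changes of the 5 genes recomputed over the 6 comparisons and 24 alternatives, 665 kept their direction and side of the threshold, 23 lost a call, 10 gained one and 22 turned direction. Of these 22, 0 were called under either setting, and their values lay near 0 (-0.03, -0.02, -0.01, 0, 0.01, 0.02, 0.03 or 0.05). They were changes of PSBY (8), PORB (8) and ATPC1 (6) at the optimum against the baseline, at 20% inhibition against the optimum, or at 30% against 20% inhibition. With single arrays left out, the optimum against the baseline ranged over -0.01 to 0.03 for PSBY and -0.05 to 0.01 for ATPC1, 20% inhibition against the optimum over -0.03 to 0.13 for PORB, and 30% against 20% inhibition over -0.02 to 0.05 for PSBY and ATPC1 and -0.02 to 0.1 for PORB. ATPC1 and PORB neither lost nor gained a call; PSBY accounted for 21 of the 23 lost calls, and all 10 gained calls were LHCB4.3 or CHLM at the optimum against the baseline. The number of the 5 genes called there was 1, against 3 with only the 8 arrays compared, 2 with arrays centred on their medians, 3 with array weights, 2 with the 25S rRNA covariate, and 1 to 2 with single arrays left out. At 20% inhibition against the optimum 4 were called, against 1 with the 25S rRNA covariate, which overlaps with the state. With medians centred, PSBY lost its calls at 20% inhibition against the baseline (adjusted p = 0.09), at 20% and 30% inhibition against the optimum (0.12 and 0.059) and in the F test (0.059); it also lost the F test with the 25S rRNA covariate (0.7), and its calls at 20% inhibition against the baseline (0.058) and the optimum (0.063) with only the 8 arrays compared. Over all probe sets, the 1629 calls between 30% and 20% inhibition became 915 with only the 8 arrays compared. Centring changed the share of calls that were higher to 62.1% from 45.0% (20% inhibition against optimum) and to 46.4% from 58.5% (30% against 20% inhibition). With the replicate block, 3568 probe sets were called at the optimum, 9815 at 20% and 9901 at 30% inhibition against the baseline, and it changed no call of the 5 genes; 5 of 16 arrays correlated best with an array of their own number. Except where named, the cause was not tested. The number of arrays limits the precision, and whether signals near the top of the range limited PSBY and ATPC1 was not tested.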
